A study of Mus musculus with 6 samples.

Results

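The cells described here are P3 astroglia isolated from mouse striatal tissue, compared between a late and a middle stretch of one developmental trajectory. The study placed astroglia of both ages on a pseudotime axis, which is a score for how far each cell's transcriptome has moved along an inferred path, and divided the score into 20 bins of equal range. Cells of the P3 libraries in bin 14 form the late side and those in bins 11 and 12 the middle side. Cells with at least 2 of the 3 cycling genes *Mki67*, *Top2a* and *Cdk1* detected were left out on both sides. This gave 2286 cells, 1237 late and 1049 middle, of 8874 P3 astroglia and of 14373 annotated cells in the whole series.

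All libraries came from male wild-type C57BL/6 mice, whose striatal tissue was dissected without the subventricular zone. Cells were enriched with magnetic beads against ACSA2, an epitope of the sodium pump subunit encoded by *Atp1b2*, and sequenced as single cells in droplets. There were 3 libraries from mice at postnatal day 3 (P3) and 3 from young adults at 3 months (3m). Each library pooled several animals, so an animal cannot be told from another within a library, and the spread given below is that between preparations.

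Newborn astrocytes leave a proliferating, radial-glia-like state and over the following weeks take on the functions of the mature cell: they clear glutamate and GABA from synapses, couple to one another through gap junctions, buffer potassium and water at their end-feet, and secrete lipoproteins and matrix proteins. Proliferation and the synthesis of ribosomes are features of the growing cell. In the mouse forebrain much of this happens after birth, so cells at different steps of it lie side by side in P3 tissue.

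The pseudotime score was made by the study from the expression of these same cells. The members were thus chosen by measured expression: each gene took part in choosing the late and the middle cells, and the late over middle values are given as a description, with no test. UMIs (unique molecular identifiers, each standing for a captured RNA molecule) were summed per library and side, and levels are CPM, each gene's UMIs scaled to a sum of 1000000. A gene is called higher or lower late below if its fitted log2 fold was at least 1 in size and its CPM moved in that direction in each of the 3 libraries. By this rule 953 of 10934 genes (8.72%) were higher and 679 (6.21%) were lower on the late side, or 1632 (14.9%) in all, and for 4760 genes (43.5%) the CPM of the sides did not overlap over the 3 libraries. Whatever the fold, 4165 of the 10934 genes had a higher CPM late in each of the 3 libraries and 3255 a lower one. The counts of list members that moved 1 way in 3 of 3 libraries stand against these. Nothing is read from these counts and shares, since the contrast chose the cells. The median fold over all genes was 0.02 on the log2 scale.

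The sides held 192, 436 and 421 middle cells and 269, 431 and 537 late cells in replicates 1, 2 and 3, with 2215280 to 4615883 UMIs per sum. The middle scores ran from 123.6 to 148.3 and the late scores from 160.7 to 172.7. Bin 13 lies between the sides, and P3 cells all but end with bin 14, as 9 lay in bin 15. All 3m cells that had a bin number lay in bins 15 to 19 except 4. At the edges, the lowest late score was 160.687 and the highest score of bin 13 160.665, and the highest middle score was 148.309 and the lowest of bin 13 148.329. Of 16653 barcode sequences 37 occurred in more than 1 library, none of them shared between 2 cells of the compared sides, though 10 of these cells had a barcode found elsewhere.

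The libraries differed in which of the study's sub-clusters filled each side. The middle side was mostly sub-cluster 2, with 140 of 192, 369 of 436 and 222 of 421 cells in replicates 1, 2 and 3. In replicate 3 another 158 cells (37.5% of that side) came from sub-cluster 4. The paper placed this sub-cluster on a side branch, near reference astrocytes from outside the telencephalon. It proposes that such cells may be contamination from neighbouring regions. The 158 cells had a median of 959 UMIs, against 9774 for sub-cluster 2 on that side. With only the telencephalic sub-clusters kept, 937 genes were called higher and 639 lower late. This setting also left out sub-clusters 6 and 8, which the paper describes as putative proliferating progenitors on its main trajectory. The late side of replicate 1 was mostly sub-cluster 1 (206 of 269 cells), whereas sub-cluster 0 made up 394 of 431 and 487 of 537 late cells in replicates 2 and 3. Sub-cluster 0 had only 11, 29 and 4 middle cells. The comparison is therefore close to one between sub-clusters.

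**Figure D1:**
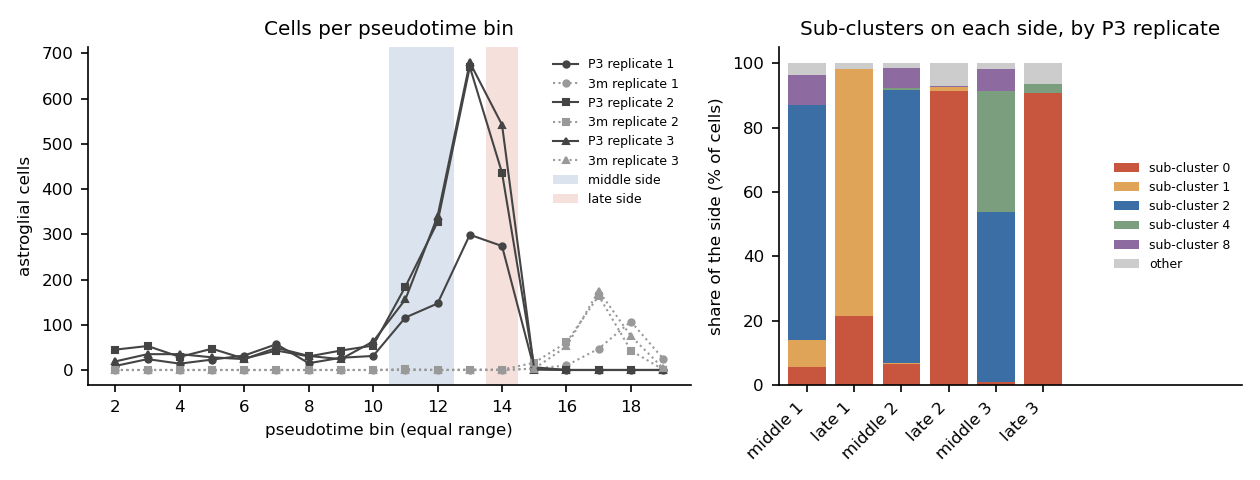
Left, number of astroglial cells (y axis) in each pseudotime bin (x axis) for the 3 P3 libraries (solid lines) and the 3 3m libraries (dotted lines), cycling cells included, with the middle and late sides shaded. Right, share of each side's cells (y axis, %) by sub-cluster for each P3 replicate; sub-cluster 2 leads the middle bars, sub-cluster 1 the late bar of replicate 1 and sub-cluster 0 the late bars of replicates 2 and 3.

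Cells on both sides carried astrocyte genes, all 10 markers of the list being detected, and few transcripts of other cell types. The summed level of 10 neuron markers was 35.96 to 46.7 CPM on the middle side and 29.7 to 38.7 CPM on the late side. The sum of 6 oligodendrocyte markers did not pass 9.93 CPM, that of 5 endothelial markers 5.75 CPM and that of 7 microglial markers 0.778 CPM in any sum. Blood genes reached 12.5 CPM. The 4 markers of oligodendrocyte precursors summed to 11.3 to 21.2 CPM on the middle side and 5.30 to 8.56 CPM on the late side. Of these *Sox10* had 45 UMIs on the middle side and 0 on the late side, at least 15.6-fold lower against a floor of 3 UMIs over the late libraries, while *Pdgfra* stood below 1 CPM in every sum. *Sox10* passed the filter on low counts only through its middle side, so nothing is read from its direction. The 6 pericyte markers summed to 16.9 to 24.5 CPM on the middle side and 47.7 to 72.8 CPM on the late side. *Pdgfrb* was higher late, *Acta2* gave a log2 fold of -4.56 ± 0.31, and *Rgs5*, *Vtn*, *Des* and *Kcnj8* stayed at or below 3.00 CPM in every sum. With each cell thinned to 3000 UMIs, *Pdgfrb* was the only pericyte marker that passed the filter on low counts. Nothing is therefore read from the direction of *Acta2*. Of 5 ependymal markers *Rarres2* was higher late (log2 fold 1.37 ± 0.12), *Dynlrb2* lower late (-1.30 ± 0.35) and *Foxj1* gave -0.76 ± 0.11. None of 6 telencephalic patterning genes was called (median 0.26). Among 11 patterning genes of regions outside the telencephalon, *Otx2* alone passed the filter on low counts, at 5.03 to 11.6 CPM.

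Depth per cell was not part of the rule. Median UMIs per cell were 12044, 10600 and 5669 on the middle side and 7986, 7470 and 6582 on the late side, so late cells were shallower in replicates 1 and 2 and deeper in replicate 3. The mean difference was -2091 ± 2643 UMIs (SD, n = 3; exact permutation test over sign flips, two-sided, p = 0.5), a test that cannot go below p = 0.25 with 3 pairs. Keeping only the telencephalic sub-clusters also leaves out the progenitor sub-clusters 6 and 8. In that setting the middle median of replicate 3 was 9734 UMIs and its late median 6619. Late cells were then shallower in all 3 libraries (mean difference -3801, exact p = 0.25). The median share of mitochondrial UMIs was 1.87, 1.54 and 1.06% on the middle side and 2.97, 2.65 and 2.00% on the late side. It was higher late in 3 of 3 libraries, by 1.05 ± 0.093 percentage points (SD over 3 libraries), and this is a description, since mitochondrial transcripts were among the genes that the score could draw on. With every cell thinned to 3000 UMIs, which left out 225 middle and 123 late cells, 756 genes were called higher and 430 lower. The part of the mitochondrial share in the gene values was not tested.

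Among genes with a mean of at least 50 CPM on the higher side, the largest late excess was that of *Crym*, which encodes mu-crystallin, a binder of thyroid hormone, on chromosome 7 (chr7:120186380-120202111, minus strand, GRCm38). It stood at 8.13, 49.0 and 39.6 CPM on the middle side and 989, 816 and 718 CPM on the late side in replicates 1, 2 and 3, a fitted log2 fold of 4.49 ± 1.61 (SD over the 3 libraries, here and below). The sides were far apart in every library, with the lowest middle value in replicate 1. *Entpd2*, an ectonucleotidase that hydrolyses extracellular ATP, followed with 5.42, 14.1 and 8.63 CPM on the middle side and 183, 161 and 162 CPM on the late side (log2 fold 3.94 ± 0.79). *Gfap*, the intermediate filament of astrocytes, was at 1.81, 8.88 and 12.9 CPM on the middle side and 39.4, 113 and 211 CPM on the late side (log2 fold 3.82 ± 0.31). Its late level was lowest in replicate 1, whose late cells were of sub-cluster 1, but was above the middle level there too.

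*Clu*, which encodes the apolipoprotein clusterin, showed the same order of libraries, with 58.7, 126 and 139 CPM on the middle side and 877, 1556 and 2121 CPM on the late side (log2 fold 3.73 ± 0.24). *Pdgfrb*, the receptor beta for platelet-derived growth factor, was at 4.97, 4.77 and 2.16 CPM on the middle side and 69.3, 45.3 and 42.8 CPM on the late side (log2 fold 3.56 ± 0.50). The other 7 genes of the 12 with the largest folds were *Eva1a* (log2 fold 3.42), the epoxide hydrolase *Ephx2* (3.38), the phospholipid hydrolase *Abhd3* (3.10), the glypican *Gpc5* (2.96), the claudin *Cldn10* (2.94), *Itih5*, whose product binds hyaluronan-associated matrix (2.87), and the synaptogenic matrix protein gene *Sparcl1* (2.84). The libraries of the sides did not overlap for any of these 12 genes, which the choice required.

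On the other side, *Nrgn*, which encodes the calmodulin-binding protein neurogranin, gave the lowest fold. Its levels were 44.2, 49.0 and 72.6 CPM on the middle side and 0.428, 1.59 and 2.59 CPM on the late side (log2 fold -5.09 ± 0.48), so the late sums were close to none. *Nrgn* passed the filter on low counts only through its middle side, so nothing is read from its direction. *Pbk*, a kinase of mitotic cells, was at 120.1, 71.3 and 114 CPM on the middle side and 3.42, 5.30 and 3.37 CPM on the late side (-4.62 ± 0.66). *Car3*, carbonic anhydrase 3, was at 74.0, 58.9 and 96.0 CPM on the middle side and 5.99, 4.77 and 6.23 CPM on the late side (-3.81 ± 0.17), and the early response gene *Ier3* at 107, 104 and 100.3 CPM on the middle side and 8.13, 9.80 and 12.5 CPM on the late side (-3.37 ± 0.34). The other 8 of the 12 were the kinetochore gene *Cenpm* (-4.18), the PCNA-associated factor *Pclaf* (-3.93), the noncoding *Lockd*, which neighbours a cell cycle inhibitor gene (-3.65), the histone gene *Hist1h4i* (-3.29), the ribonucleotide reductase subunit *Rrm2* (-3.26), the actin-binding *Tagln2* (-3.22), *Igfbp4*, a binder of insulin-like growth factors (-2.86), and the selenoprotein gene *Selenoh* (-2.73). The fold of *Pclaf* was -4.83 without replicate 3, that of *Cenpm* -4.91 without replicate 2, and that of *Entpd2* above was 4.56 without replicate 2.

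**Figure D2:**
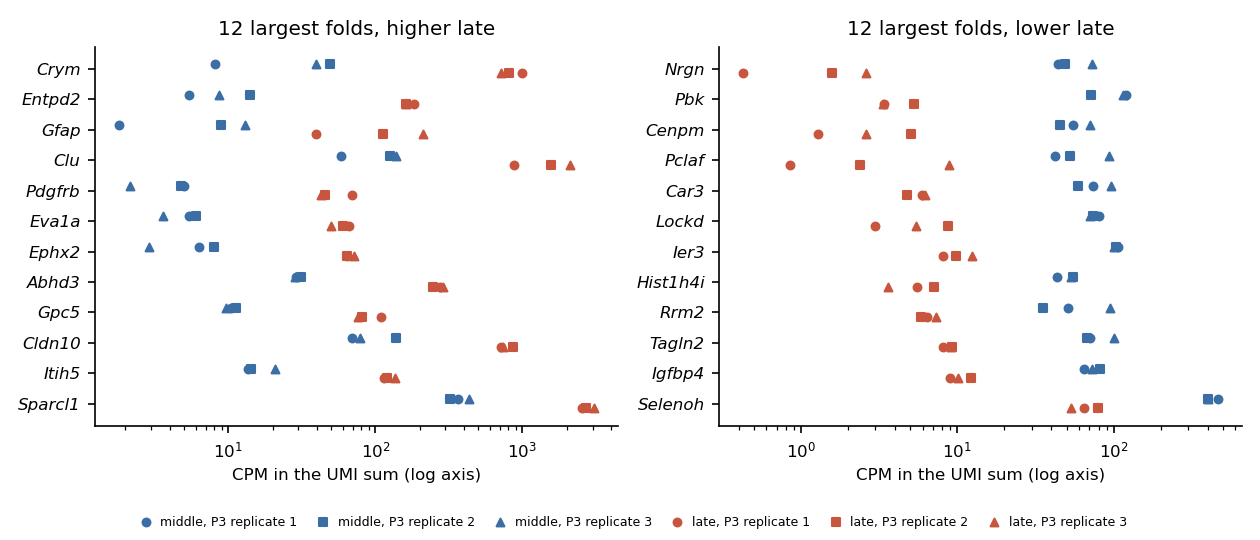
CPM in each library's UMI sum (x axis, log scale) for the 12 genes with the largest folds in each direction (y axis), with middle sums in blue, late sums in red and the P3 replicate shown by the marker. In every row the 3 late points and the 3 middle points stand apart, as the choice of the genes required, and *Gfap* and *Clu* late are lowest in replicate 1.

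Genes of astrocyte identity were higher late in 8 of 10 cases, with a list median of 1.55 on the log2 scale against 0.02 over all genes. *Slc1a2*, the main glutamate transporter of the forebrain (GLT-1), was at 489, 398 and 423 CPM on the middle side and 2084, 2126 and 2384 CPM on the late side (log2 fold 2.28 ± 0.20). The libraries were close together on each side. *Gja1*, the gap junction protein connexin 43, was at 149, 159 and 182 CPM on the middle side and 662, 739.9 and 815 CPM on the late side (2.12 ± 0.04), and *S100b*, a calcium-binding protein, at 19.9, 37.7 and 19.4 CPM on the middle side and 82.6, 166 and 135 CPM on the late side (2.23 ± 0.43). The water channel *Aqp4* gave 1.96, glutamine synthetase (*Glul*) 1.14, the glutamate transporter *Slc1a3* 1.05 and the glycolytic *Aldoc* 1.01. The 2 members not called were *Sox9*, a glial fate factor (0.42), and *Aldh1l1*, a folate enzyme used as a marker of all astrocytes, which was level at 451, 354 and 461 CPM on the middle side and 428, 359 and 461 CPM on the late side (-0.07 ± 0.05). Without replicate 3 the list had 6 of 10 called.

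For transmitter handling, 6 of 9 genes were higher late and all 9 had a higher CPM late in 3 of 3 libraries (list median 1.04). *Abat*, the transaminase that breaks down GABA, was at 61.4, 66.9 and 75.2 CPM on the middle side and 192, 183 and 266 CPM on the late side (1.57 ± 0.25), and *Glud1*, glutamate dehydrogenase, at 963, 747 and 1175 CPM on the middle side and 1961, 1551 and 2509.9 CPM on the late side (1.00 ± 0.08). The GABA transporter *Slc6a11* (0.57) stayed under the fold rule. Without replicate 3 only 3 of the 9 passed it.

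Gap junction, end-foot and ion transport genes were higher late in 10 of 12 cases (median 1.37). The sodium pump subunit *Atp1b2* (1.49) and the bicarbonate transporter *Slc4a4* (1.25) were higher late, and *Atp1b2* carries the epitope used to enrich all libraries. *Gjb6*, connexin 30, passed the filter on low counts through its late side, with 3 UMIs in all middle sums and 40 in all late sums. The ratio of 12.9 rests on few counts and is a description, since the cells were chosen by expression. Of the other 11 members 9 were higher late (median 1.25). The potassium channel *Kcnj10* (0.86) and the adhesion protein *Hepacam* (0.47) were not called.

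Synaptic and matrix factors formed the list with the highest median among the astrocyte functions, 1.76, with 17 of 19 measured members higher late. *Thbs1* and *Thbs4*, thrombospondins that promote synapse formation, did not pass the filter on low counts. *Sparc*, an antagonist of the synaptogenic action of its relative *Sparcl1*, was at 121, 124 and 125 CPM on the middle side and 779, 654 and 677 CPM on the late side (2.44 ± 0.21). *Hapln1*, which links hyaluronan to proteoglycans, was at 22.1, 28.2 and 23.0 CPM on the middle side and 155, 189.9 and 199 CPM on the late side (2.81 ± 0.24), and the lecticans *Bcan* (1.84), *Ncan* (1.22) and *Vcan* (1.09) with the glycoprotein *Tnc* (1.42) were also higher late. The phagocytic receptors *Mertk* (2.03) and *Megf10* (1.45) were called as well. The secreted growth factor *Ptn* gave 1.48, while its family partner *Mdk* was level (0.00 ± 0.11).

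Lipid and carbohydrate genes were higher late in 8 of 15 measured cases (median 1.01). *Apoe*, the chief apolipoprotein of brain lipoproteins, was at 4265, 4314 and 3334 CPM on the middle side and 23865, 19235 and 18082 CPM on the late side (2.30 ± 0.25), and all late sums lay far above the middle sums. The cholesterol exporter *Abca1*, which lipidates it, was at 64.6, 52.9 and 49.3 CPM on the middle side and 254, 235 and 203 CPM on the late side (2.00 ± 0.03). The fatty acid binding protein gene *Fabp5* was level (0.05 ± 0.11). Of 15 genes of cholesterol synthesis and its control, *Msmo1* (1.20) and *Sc5d* (1.04), which act late in the pathway, were higher late, none were lower, and 13 had a higher CPM late in every library (median 0.55). The share called higher was 13.3%, near the 8.72% over all genes.

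Among transcription factors linked to astrocyte maturation, 5 of 18 measured were higher late and none lower (median 0.62). These were *Id4* (1.95) and 4 genes tied to the circadian clock, *Nr1d2* (1.31), *Tef* (1.15), *Nr1d1* (1.14) and *Hlf* (1.01). *Id4*, an inhibitor of basic helix-loop-helix factors, was at 28.4, 34.9 and 29.5 CPM on the middle side and 158, 122 and 113 CPM on the late side (1.95 ± 0.40). The nuclear receptor gene *Rorb* was at 160.2, 202 and 228 CPM on the middle side and 323, 414 and 425 CPM on the late side (0.92 ± 0.07), just under the fold rule but apart in every library. The homeobox genes *Lhx2* (0.45) and *Dbx2* (0.25) lay lower, and *Fezf2* did not pass the filter, at 0 to 2.57 CPM. The nuclear factor I genes, which drive gliogenesis, were level, at 0.17 for *Nfia*, 0.12 for *Nfib* and -0.05 for *Nfix*.

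Among 12 Notch and Id genes, 3 were called higher late and 2 lower (25.0% and 16.7%, median -0.21). Among 11 FGF and Erk genes, 2 were higher and 1 lower (18.2% and 9.09%, median -0.31). Over all genes the shares were 8.72% and 6.21%, and with lists this short nothing is read from these counts. The receptor *Notch2* was at 13.5, 27.7 and 52.9 CPM on the middle side and 56.9, 113 and 127 CPM on the late side (1.63 ± 0.41), higher late within each library although replicate 3 middle was near replicate 1 late. The Notch ligand gene *Dll1* gave -3.05 (-3.87 without replicate 1). It did not pass the filter on low counts with bin 12 alone as the middle side, so nothing is read from its direction. The target *Hes1* was lower late (-1.21 ± 0.17), and *Hes5* gave -0.59 ± 0.09. The Id genes differed among themselves, with *Id2* at 1.29 and *Id4* at 1.95 but *Id1* at -0.35 and *Id3* at -0.24. The receptors *Fgfr2* (1.36) and *Fgfr3* (1.15) were higher late, *Fgfr1* gave 0.91, and *Spry1*, a feedback inhibitor of receptor signalling, was at 91.6, 70.2 and 75.9 CPM on the middle side and 22.7, 16.7 and 22.8 CPM on the late side (-1.98 ± 0.23).

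**Figure D3:**
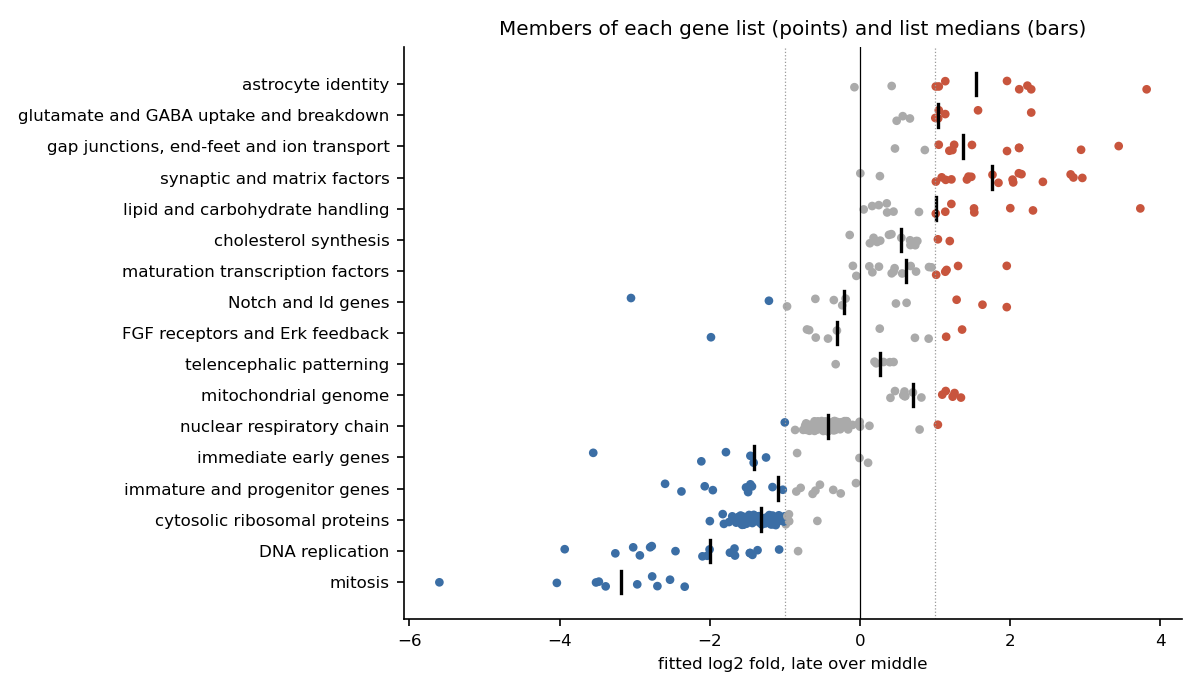
Fitted log2 fold, late over middle (x axis), for the measured members of 17 gene lists (points; red at 1 or above, blue at -1 or below, grey between) with the list median as a black bar; dotted lines mark the fold rule. Astrocyte function lists lie to the right with medians from 1.01 to 1.76, and the ribosomal protein and replication lists to the left with medians of -1.32 and -2.003. The mitosis row holds only the 10 of 20 members that passed the filter on low counts, and nothing is read from it.

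Progenitor and immature genes were lower late in 10 of 18 cases, none were higher, and 17 had a lower CPM late in every library (median -1.10). With cells of sub-cluster 0 only, which rests on few middle cells, 1 of 16 measured was lower (median -0.27). *Nes*, the intermediate filament of neural progenitors, was at 273, 180.5 and 264 CPM on the middle side and 58.6, 36.6 and 49.0 CPM on the late side (-2.38 ± 0.12). The glial and oligodendrocyte lineage factors *Olig2* (-1.96) and *Olig1* (-1.46) were also lower late. *Vim*, vimentin, gave -1.03 ± 0.03. *Fabp7*, the fatty acid binding protein of radial glia, did not take part: it was at 21141, 29709 and 21272 CPM on the middle side and 22177, 26871 and 22513 CPM on the late side (-0.05 ± 0.20), and its levels overlapped.

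Genes of DNA replication were lower late in 18 of 19 cases after cells with several cycling genes had been left out (median -2.003). The middle side still held 74 cells of sub-cluster 8 and 13 of sub-cluster 6, the putative proliferating progenitors. The late side held 2 and 6 such cells. With only the telencephalic sub-clusters kept, which leaves out both, 17 of the 19 were lower late (median -1.987). The subunit *Mcm6* of the replicative helicase was at 60.9, 36.4 and 59.7 CPM on the middle side and 6.42, 9.54 and 11.7 CPM on the late side (-2.46 ± 0.59), *Mcm7* gave -2.003 and *Hells*, a chromatin remodeller of replicating cells, was at 43.8, 39.9 and 50.7 CPM on the middle side and 5.57, 5.83 and 5.71 CPM on the late side (-3.02 ± 0.13). *Slbp*, the histone mRNA binding protein, was the member not called (-0.82). With cells of sub-cluster 0 only, 4 members passed the filter on low counts and 1 was lower late. Mitosis genes passed the filter in 10 of 20 cases, and since a gene had to be measurable on the middle side to pass, no count over them is read. The cells left out as cycling were 27.0, 14.7 and 15.1% of the middle side and 1.82, 1.15 and 0.923% of the late side. With them kept, 997 genes were called higher and 819 lower late. With any cell left out that had even 1 of the 3 cycling genes, the counts were 892 and 575 genes, and 17 of the 19 replication genes were still lower late (median -1.66).

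E2F factors are the textbook activators of replication genes, and their promoters are shown because these members moved together. RefSeq windows (GRCm38.p6, from 250 bases before to 50 after a gene's start) were found for 16 of the 19 replication genes. In 6 of these (37.5%) the window held an E2F motif in 1 of the spellings TTTGGCGC, TTTCCCGC, TTTGCCGC or TTTCGCGC on either strand, against 704 of 27025 genes (2.6%). The 6 were *Mcm3*, *Mcm5*, *Mcm6*, *Mcm7*, *Pclaf* and *Hells*. A match is a description of these letters and not of binding. The stretches below run 5′ to 3′ along the gene's own strand, with the matched letters in capitals; that of *Mcm6* lies at chr1:128359797-128359826 (minus strand), that of *Mcm7* at chr5:138172030-138172059 (minus strand) and that of *Hells* at chr19:38930917-38930946 (plus strand).
Mcm6: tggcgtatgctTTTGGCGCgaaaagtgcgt
Mcm7: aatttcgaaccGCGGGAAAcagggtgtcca
Hells: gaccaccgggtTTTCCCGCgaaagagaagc

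Cytosolic ribosomal protein genes were lower late as a group. All 82 genes matched by name had a lower CPM late in 3 of 3 libraries, against 3255 of all 10934 genes. Of the 82, 77 were called lower (range -1.999 to -0.57, median -1.32). The 82 include *Rps19bp1*, a binding partner and not a ribosomal subunit. Together they made up 170640 to 200660 CPM on the middle side and 67334 to 85618 CPM on the late side. *Rpsa*, which encodes a protein of the small subunit, was at 3741, 4234 and 3399 CPM on the middle side and 979, 1159 and 833 CPM on the late side (-1.999 ± 0.05). The stalk protein *Rplp0* was at 2950.0, 3645 and 2473 CPM on the middle side and 939, 1082 and 659 CPM on the late side (-1.83 ± 0.14), and *Rps6*, the subunit phosphorylated downstream of growth signals, at 974, 670.3 and 540.1 CPM on the middle side and 267, 218 and 156 CPM on the late side (-1.81 ± 0.06). The smallest differences among ribosomal subunits were those of *Rpl36al* (-0.94) and *Rpl27* (-0.95). The number called was 75 to 78 when a library was left out, but 10 with cells of sub-cluster 0 only (median -0.82) and 13 with bin 13 as the late side (median -0.79). Such genes have many processed copies in the genome, and reads shared with those cannot be told apart here.

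Messenger RNAs of ribosomal proteins are known for a terminal oligopyrimidine tract, a run of C and T letters at their very start through which growth signals control their translation. RefSeq windows were found for 61 of the 82 genes. In 15 (24.6%) the annotated start was a C followed by at least 4 further C or T letters, against 813 of 27025 genes (3.01%). Around the start, 15 bases on each side, *Rps6* (chr4:86857353-86857382, minus strand) has such a run, *Rpl27a* (chr7:109519180-109519209, plus strand, log2 fold -1.74) has a run that opens with T, and *Rpsa* (chr9:120127751-120127780, plus strand) has none at the start that RefSeq gives. Capitals mark the run from the first transcribed base.
Rps6: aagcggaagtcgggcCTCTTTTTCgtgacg
Rpl27a: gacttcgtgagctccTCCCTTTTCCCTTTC
Rpsa: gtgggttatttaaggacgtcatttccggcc

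Genes for the respiratory chain differed by genome. All 13 mitochondrially encoded genes had a higher CPM late in 3 of 3 libraries, 5 being called higher (median 0.71), and their sum was 11545 to 20123 CPM on the middle side and 20891 to 31113 CPM on the late side. *mt-Nd4*, a subunit of complex I, was at 1363, 1196 and 1019.8 CPM on the middle side and 3004, 2446 and 2490.0 CPM on the late side (1.10 ± 0.19). Of 80 measured nuclear genes of the chain, 71 had a lower CPM late in 3 of 3 libraries, but the median was -0.43 and only *Atp5g2*, a subunit of the ATP synthase ring, was called lower (-1.001 ± 0.06). *Cox7a1*, an isoform of complex IV known from muscle, was called higher (1.04) at 11.4 CPM or less. The mitochondrial sum moves with the mitochondrial share of the cells given above, which is also a measure of cell quality.

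Immediate early genes, which respond within minutes to stimulation and also to tissue dissociation, were lower late in 6 of 9 cases (median -1.42). *Fos* was at 1763, 1745 and 2356 CPM on the middle side and 879.7, 781 and 886 CPM on the late side (-1.25 ± 0.21), *Egr1* at 648, 489.8 and 683 CPM on the middle side and 146, 145 and 140.4 CPM on the late side (-2.11 ± 0.21) and *Junb* at 276, 528 and 570.0 CPM on the middle side and 108, 231 and 183 CPM on the late side (-1.46 ± 0.18). *Fosb* gave -0.01 ± 0.36 and *Dusp1* 0.11 ± 0.44. With bin 13 as the late side 1 of the 9 was lower late (median -0.47). With cells of sub-cluster 0 only, which had 44 middle cells, 6 were measured and none was lower late. *Fos* was then higher late, with a fold of 1.67. Metallothioneins gave -0.34 for *Mt1*, -0.60 for *Mt2* and 0.45 for *Mt3*, none of them called.

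Bin 13, which neither side used, was cut from the same score, so the levels over the bins are a description. *Slc1a2* had mean levels of 221, 549, 1262 and 2198 CPM in bins 11 to 14, *Clu* 42.5, 138, 531 and 1518 CPM and *Rpsa* 4595, 3390.4, 1678 and 991 CPM. *Fabp7* did not follow a single direction, with 16140.0, 27988, 31063 and 23854 CPM and its highest mean in bin 13. *Nes* was lower in each successive bin, at 259, 227, 107 and 48.1 CPM. With bin 13 as the late side, 391 genes were called higher and 312 lower.

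**Figure D4:**
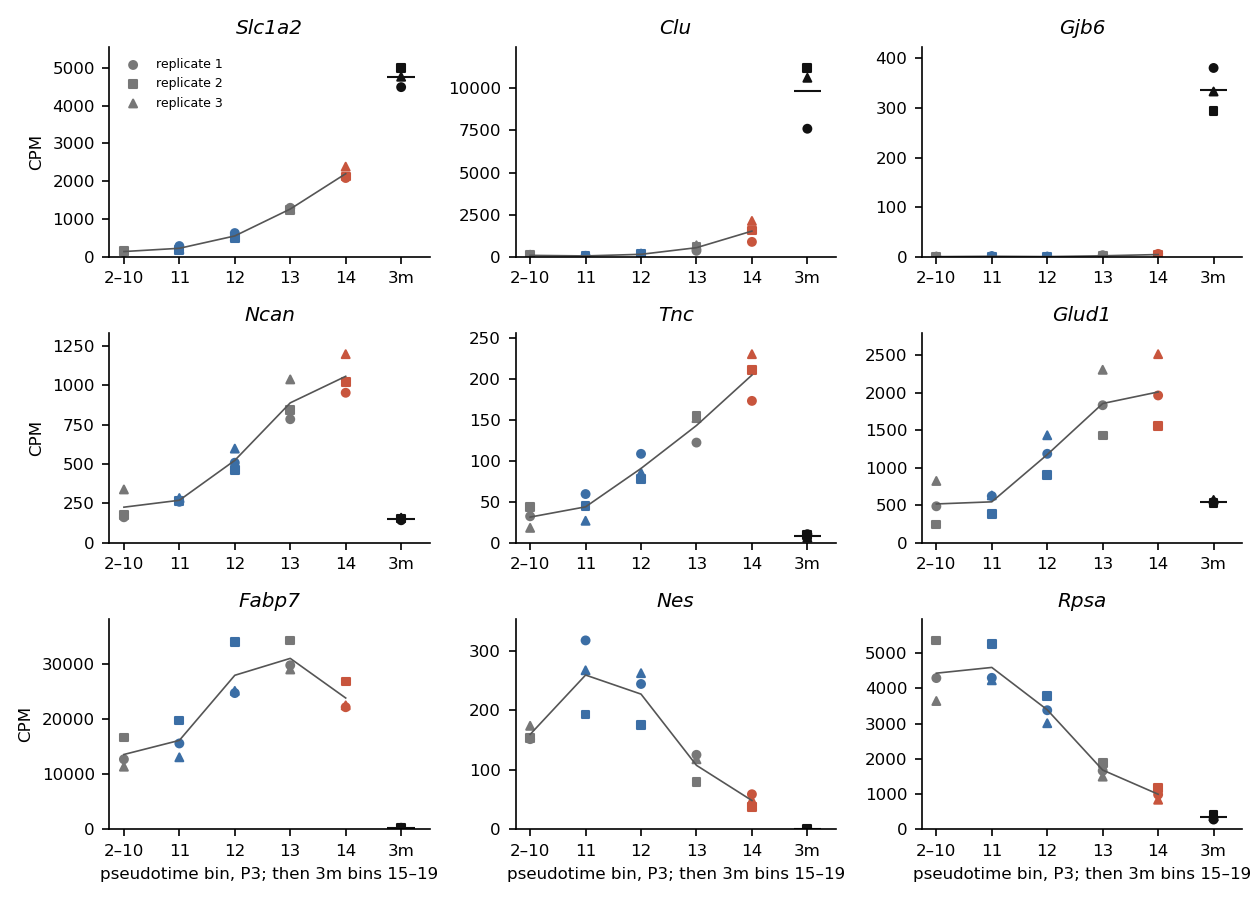
CPM (y axis, linear from 0) of 9 genes in P3 cells of pseudotime bins 2 to 10, 11, 12, 13 and 14 and in 3m cells of bins 15 to 19 (x axis); points are libraries, grey lines join P3 means and the black bar is the 3m mean. *Slc1a2* and *Clu* climb over the P3 bins and stand higher at 3m, *Ncan*, *Tnc* and *Glud1* climb and stand low at 3m, and *Fabp7* peaks in bin 13.

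Age was a label of the libraries and not part of the rule, so each gene's difference by age was tested. The trajectory was however computed over cells of both ages, so a gene that was higher late and at 3m is not independent support for either. All astroglia that were not cycling were summed per library, 1157485 to 1843998 UMIs at 3m and 16140652 to 22025637 at P3, and compared with edgeR's quasi-likelihood test with Benjamini-Hochberg adjustment. With a threshold of 0.05 on the adjusted p and of 1 on the size of the log2 fold, 1858 of 12902 genes (14.4%) rose at 3m and 1674 (13%) fell. Of the calls 52.6% were rises, but 39.1% when library totals alone scaled the sums, and the all-gene median then went from -0.02 to -0.24. The P3 libraries are shared with the late over middle comparison, so the values are set side by side only. The 3m sums carried RNA of other cells: the 6 oligodendrocyte markers summed to 708 to 1864 CPM at 3m and 5.86 to 6.38 CPM at P3, and the 7 microglial markers to 6.79 to 60.7 CPM and 0.248 to 1.75 CPM. Their part in the age values was not tested. With only the cells that had a pseudotime the counts were 1896 and 1684. That setting did not remove such RNA: 3 of 3 measured oligodendrocyte markers (median log2 fold 6.97) and the 1 measured microglial marker (5.63) were still higher at 3m.

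By edgeR, 5 of the 10 identity genes rose at 3m and 1 fell, 5 of the 12 gap junction and end-foot genes rose, and 10 of 19 maturation factors rose. Of the transmitter genes 4 of 9 rose and 1 fell, of the lipid genes 6 of 15 rose and 2 fell, and of 20 measured synaptic and matrix genes 9 rose and 3 fell. With no scaling beyond totals the transmitter list had 2 risen and the synaptic and matrix list 5 risen and 5 fallen. Of 15 cholesterol genes 1 rose and 5 fell. Several genes that were higher late in P3 were higher still at 3m. *Clu* was at 629, 1035 and 1636 CPM at P3 and 7408, 8117 and 9723 CPM at 3m (log2 fold 3.16 ± 0.36, adjusted p = 8.6e-06, SE from edgeR, here and below). Every 3m library was far above every P3 library. *Slc1a2* rose by 2.05 ± 0.26, adjusted p = 2.1e-05 on the log2 scale, with 1667, 1063 and 1331 CPM at P3 and 4705, 4883 and 4837 CPM at 3m, and *Gja1* by 1.76 ± 0.20, adjusted p = 1.2e-05. *S100b* rose by 3.25 ± 0.21, adjusted p = 4.5e-08, *Gpc5* by 2.58 ± 0.24, adjusted p = 1.8e-06, *Cldn10* by 2.28 ± 0.22, adjusted p = 2.2e-06 and *Id4* by 1.85 ± 0.23, adjusted p = 2e-05 (edgeR). *Gjb6* rose from 3.72, 2.04 and 4.04 CPM at P3 to 381, 347 and 344 CPM at 3m (7.01 ± 0.25, adjusted p = 8.9e-10), so that its late P3 level was a small part of the adult level. *Pdgfrb* rose by 1.21 ± 0.20, adjusted p = 0.00026 by edgeR, and its fold was just under 1 (0.996) with no scaling.

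Other genes higher late in P3 fell at 3m. The proteoglycan genes *Ncan* (877, 639 and 784 CPM at P3 and 149, 177 and 166 CPM at 3m; edgeR log2 fold -1.998 ± 0.20, adjusted p = 2.7e-06) and *Vcan* (-3.51 ± 0.28, adjusted p = 2.8e-07) and the glycoprotein *Tnc* (182, 122 and 144 CPM at P3 and 11.2, 4.88 and 6.11 CPM at 3m; -4.18 ± 0.27, adjusted p = 4.6e-08) were far lower in every 3m library. *Glud1* fell as well, at 1811, 1146 and 1995 CPM at P3 and 554, 602 and 596 CPM at 3m (-1.26 ± 0.23, adjusted p = 0.0005). Some late genes gave no call by age: *Gfap* was at 51.5, 70.5 and 169 CPM at P3 and 32.0, 99.8 and 46.2 CPM at 3m (-0.43 ± 0.41, adjusted p = 0.42) and *Itih5* at 75.6, 70.3 and 97.5 CPM at P3 and 56.2, 64.5 and 55.0 CPM at 3m (-0.24 ± 0.17, adjusted p = 0.29). For *Sparc* (670.0, 509 and 651 CPM at P3 and 198, 1222 and 342 CPM at 3m; 0.19 ± 0.46, adjusted p = 0.77) the high value came from 3m replicate 2; without that library the fold was -0.999 (adjusted p = 0.013), and with only the cells that had a pseudotime it was -1.11 (2.1e-04, edgeR). *Gfap* likewise gave -1.31 (adjusted p = 0.023, edgeR) with only those cells.

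Among the genes lower late, most progenitor genes were lower at 3m, 16 of 18 by edgeR. *Nes* fell from 127, 99.9 and 136 CPM at P3 to 0, 2.17 and 1.36 CPM at 3m (-6.26 ± 0.36, adjusted p = 1.3e-08), and *Fabp7*, level between the P3 sides, fell as well, from 22899, 26629 and 19739 CPM at P3 to 233, 339 and 172 CPM at 3m (log2 fold -6.33 ± 0.42, adjusted p = 5.1e-08). Replication genes fell in 17 of 19 cases and immediate early genes in 9 of 9, among which *Fosb* had 2458 UMIs at P3 and 0 at 3m, at least 64.9-fold lower against a floor of 3 UMIs over the 3m libraries. Ribosomal protein genes fell in 41 of 82 cases by edgeR (median -0.997), a count that was 18 without P3 replicate 2, 58 without 3m replicate 2 and 72 with only the cells that had a pseudotime. The 13 mitochondrially encoded genes all rose (median 1.95). *Mt1*, not called between the P3 sides, rose from 1599, 2445 and 1917 CPM at P3 to 10247, 12299 and 13331 CPM at 3m (2.80 ± 0.32, adjusted p = 9.1e-06), and *Hopx*, a homeodomain-only factor whose fold between the P3 sides was near 0 with a wide spread (-0.09 ± 0.70), rose from 8.49, 16.3 and 34.2 CPM at P3 to 142, 117 and 166 CPM at 3m (3.07 ± 0.36, adjusted p = 1.4e-05).

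*Hist1h4i* was lower late in P3 and higher at 3m, and *Nrgn*, whose direction within P3 is not read, was also higher at 3m. *Hist1h4i* was at 12.2, 21.8 and 16.2 CPM at P3 and 63.1, 58.0 and 70.6 CPM at 3m (edgeR log2 fold 2.13 ± 0.24, adjusted p = 7.4e-06), above every P3 library in 3 of 3 libraries. *Nrgn* was at 8.30, 13.4 and 14.8 CPM at P3 and 28.5, 66.2 and 55.0 CPM at 3m (2.28 ± 0.29, adjusted p = 2.5e-05); with only the cells that had a pseudotime its fold was 0.47 and not called (adjusted p = 0.21, edgeR), and with cycling cells kept it was 0.67 and not called (adjusted p = 0.046, edgeR). *Aldh1l1* was level between the P3 sides and at the fold rule by age (454, 315 and 403 CPM at P3 and 211, 144 and 149 CPM at 3m; -1.003 ± 0.20, adjusted p = 0.001, edgeR), the call being lost on leaving out replicate 2 (-0.96) or 3 (-0.98) of 3m or replicate 1 (-0.88) or 3 (-0.99) of P3, and also with cycling cells kept (-0.92) or sums thinned to the smallest (-0.87).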

How the data were processed

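Single-cell RNA-seq libraries from ACSA2-enriched striatal cells, 3 at P3 and 3 at 3m, were analysed from the deposited UMI counts, which the authors made with Cell Ranger on mm10. The authors kept cells with more than 500 genes and less than 10% mitochondrial UMIs, clustered them with Seurat (3.1.1 in the submitters' processing notes) and computed the pseudotime score with Slingshot from principal components of these cells. Score, bin and sub-cluster were taken from the deposited cell annotation. No doublet caller was run here. Replicates are separate preparations, so p-values measure the spread between these.

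Counts were summed per library and side, and per library for astroglia of each age, leaving out cells with at least 2 of *Mki67*, *Top2a* and *Cdk1* detected. Genes were filtered with filterByExpr, scaled by TMM and fitted with edgeR 4.0.16 in R 4.3.3, with the library as a block for late over middle. A prior count of 2 entered the log2 CPM per library from which the SD of a late over middle fold was taken, but not the fitted folds. For genes with few counts a fold and its SD are thus not on the same scale. The age comparison used the quasi-likelihood test with Benjamini-Hochberg adjustment over all genes, and the fit was tested on simulated data with known folds. Library totals were 5471573 to 37795021 UMIs from 1308 to 5582 barcodes. Named genes were the 12 largest folds each way, with at least 50 mean CPM on the higher side and sides that did not overlap, and members of lists by pathway and cell type. Members and lists were chosen with earlier results of these data known. Unstranded or overlapping annotations were not resolved further, and counts of near-identical gene copies are uncertain. Coordinates are from GENCODE M21 (GRCm38) and sequences from RefSeq (GRCm38.p6). Alternatives covered scaling, filter, tool (DESeq2 1.42.0), block, replicates, cycling cells, bins, sub-clusters and depth. Of these, the repeat of the depth and mitochondrial medians in the telencephalic sub-clusters (0, 1, 2, 9 and 11) was added after seeing the data. The progenitor sub-clusters 6 and 8 were not among those kept. Some list members are not reported here by name.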

Additional observations from a re-analysis of the deposited data

How the results depend on the processing

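The number of genes higher late (953) was 391 with bin 13 as the late side, 1517 with no filter on low counts and 389 with cells of sub-cluster 0 only, and 973 to 1036 when a replicate was left out. The number lower late (679) was 409 with bin 12 alone as the middle side, 312 with bin 13 as the late side, 430 with each cell thinned to 3000 UMIs, 1294 with no filter, 58 with sub-cluster 0 only, and 671 to 770 without a replicate. Sub-cluster 0 had 44 middle cells against 939 late cells, so this setting rests on few cells. Of 206 list genes and leading genes called in the main comparison, 6 changed sign under any alternative, all under this setting, to 0.0272 for *Egr1*, 1.67 for *Fos*, 0.32 for *Hes1*, 0.0391 for *Ier2*, 0.66 for *Junb* and -0.88 for *mt-Nd6*, and the cause was not tested. Of 176 such genes that were not called, 37 changed sign under at least 1 alternative, 20 in cells of sub-cluster 0 and 26 under other settings, some of them in both. By age, 978 genes fell (main 1674) and 1274 rose (main 1858) with sums thinned to the smallest, where fewer genes were tested. Without a replicate 1489 to 1740 rose and 1138 to 1793 fell. The difference in median UMIs ranged from -3594 to -1108 and that in mitochondrial share from 1.02 to 1.10 percentage points without a replicate, and the latter was 0.448 with bin 13 as the late side.

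The late over middle comparison took each library as its own pair, and with no replicate block 955 genes were higher and 679 lower. P3 and 3m libraries share only replicate numbers: deviations of same-numbered libraries correlated at r = 0.233, 0.123 and 0.044, and not every library correlated best with its own number. With a replicate block in the age comparison 1877 genes rose and 1719 fell. Among all named genes, of the values recomputed by age 4986 stayed on the same side of the call, 137 lost the call and 165 gained it. The sign of uncalled folds did not enter this count. *Sparc*, at 0.19 in the main fit and -0.999 without 3m replicate 2, was counted as staying.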
